A study of Saccharomyces cerevisiae with 9 samples.

Results

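ARO8, ARO9, ARO10 and ARO80 are genes of the Ehrlich pathway, by which the yeast Saccharomyces cerevisiae breaks down the aromatic amino acids phenylalanine, tyrosine and tryptophan. These 4 genes, of 5449 S. cerevisiae genes read on the array, were chosen by name as pathway genes, with earlier results of the same arrays known. Which measured values led to the choice is not recorded. All signals of the 4 genes across strains and doses are therefore treated as known to it, and their signals and differences are given as a description. Where these genes are counted among those past a fit of all genes, the count is part of that description and no evidence about them. Each of the 4 is read by 1 probe set, a group of short probes for 1 transcript, so no choice between probe sets arose.

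The series holds 9 single-colour arrays, 1 for each of the strains NBRC1958, NBRC2018 and KF7 at each of 3 doses of added succinic acid, an intermediate of the citric acid cycle. All cultures were grown in the rich medium YPD, at 35 °C and 200 rpm, for 6 h, and the doses were 0, 20 and 60 g/L. The labels name the strains without giving their genotype, ploidy or origin, and do not say whether any arrays came from separate cultures. With 1 array per strain and dose, a dose was replicated over the 3 strains, and a strain over the 3 doses.

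Signals are in arbitrary units. Median signals over the yeast genes ran from 294 to 311 per array. The 95th percentile of probe sets for another organism, taken as the background, ran from 14.7 to 15.9. The number of arrays limits the precision. Differences between arrays are given on the log2 scale after adding 16 to each signal, which understates changes at low signals, and plain ratios of signals are named as such.

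In the Ehrlich pathway an aminotransferase first moves the amino group of the amino acid onto a keto acid. A decarboxylase then turns the resulting aromatic keto acid into an aldehyde, which dehydrogenases reduce to an alcohol or oxidise to an acid. The alcohols made from phenylalanine, tyrosine and tryptophan are phenylethanol, tyrosol and tryptophol, known as fusel alcohols of fermented drinks. ARO8 and ARO9 encode the aromatic aminotransferases, ARO10 encodes the decarboxylase, and ARO80 encodes a zinc cluster transcription factor that activates ARO9 and ARO10 when aromatic amino acids are present.

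ARO8 (YGL202W) encodes the aminotransferase that also works in the synthesis of aromatic amino acids. In NBRC1958 its signal was 1852 at 0 g/L, 1519 at 20 g/L and 1056 at 60 g/L. In NBRC2018 it was 1589, 1446 and 1343, and in KF7 it was 1833, 1601 and 1547, in the same order of dose. The signal was lower at each higher dose in all 3 strains, and the span was widest in NBRC1958. The log2 difference between 60 and 0 g/L was -0.80 in NBRC1958, -0.24 in NBRC2018 and -0.24 in KF7, a mean of -0.43 ± 0.32 (SD, n = 3 strains). The strains overlapped in ARO8, with means over the doses of 1476 ± 400 in NBRC1958, 1460 ± 123 in NBRC2018 and 1660 ± 152 in KF7 (SD, n = 3 doses).

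ARO9 (YHR137W) encodes the aminotransferase that is induced by aromatic amino acids and works mainly in their breakdown. Its signal in NBRC1958 was 734 at 0 g/L, 770 at 20 g/L and 1524 at 60 g/L. In NBRC2018 the signals at these doses were 550, 776 and 902. In KF7 they were 88.4, 90.5 and 434. ARO9 was thus highest at 60 g/L in every strain. The step came between 20 and 60 g/L in NBRC1958 and KF7, while in NBRC2018 the larger part lay between 0 and 20 g/L.

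The ARO9 signal at 60 g/L was 2.08 times that at 0 g/L in NBRC1958, 1.64 times in NBRC2018 and 4.91 times in KF7. These are log2 differences of 1.04, 0.70 and 2.11, with a mean of 1.28 ± 0.74 (SD, n = 3 strains). At 20 against 0 g/L the differences were 0.07, 0.49 and 0.03, with a mean of 0.19 ± 0.25. The mean at 20 g/L was smaller than its SD, and the mean at 60 g/L was larger than its SD. The dose groups overlapped all the same, because every KF7 array lay below every array of the other strains: signals averaged 457 ± 333 at 0 g/L, 546 ± 394 at 20 g/L and 953 ± 547 at 60 g/L.

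ARO10 (YDR380W) encodes the phenylpyruvate decarboxylase, which also accepts the keto acids of methionine and leucine. In NBRC1958 its signal was 882 at 0 g/L, 463 at 20 g/L and 202 at 60 g/L, lower at each step. In NBRC2018 it was 666, 877 and 416, highest at the middle dose. In KF7 it was 94.3, 78.7 and 263, highest at 60 g/L. The order of the doses therefore differed in each of the 3 strains.

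At 60 against 0 g/L the ARO10 signal was 4.36 times lower in NBRC1958, 1.60 times lower in NBRC2018 and 2.79 times higher in KF7. The log2 differences were -2.04, -0.66 and 1.34, so their mean of -0.45 ± 1.70 (SD, n = 3 strains) describes none of the strains. Leaving out the 0 g/L array of NBRC1958 made that mean 0.11, leaving out its 60 g/L array made it 0.18, and leaving out the 60 g/L array of KF7 made it -1.34. Over the doses ARO10 averaged 516 ± 343 in NBRC1958, 653 ± 230 in NBRC2018 and 145 ± 102 in KF7 (SD, n = 3 doses).

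ARO80 (YDR421W), the activator gene, had an arithmetic mean signal of 91.4. Averaged on the log2 scale, as for the level filter, its mean was 87.4. This is under the level of 118 below which the lowest 20% of genes were left out of testing, so 3 of the 4 genes passed that filter. The ARO80 signal lay 3.20 to 8.64 times above the background of its array. The NBRC1958 signals were 127, 122 and 120 at 0, 20 and 60 g/L. The NBRC2018 signals were 78.8, 88.0 and 115, and those of KF7 were 56.2, 49.9 and 65.5.

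ARO80 was nearly level over dose in NBRC1958, and highest at 60 g/L in NBRC2018 and KF7. At 60 against 0 g/L its log2 differences, for NBRC1958, NBRC2018 and KF7 in turn, were -0.08, 0.46 and 0.17, a mean of 0.19 ± 0.27 (SD, n = 3 strains). By strain its order was the same at every dose, NBRC1958 above NBRC2018 above KF7, with means of 123 ± 3.7, 93.8 ± 18.5 and 57.2 ± 7.8 (SD, n = 3 doses). The gap between NBRC1958 and NBRC2018 narrowed to 120 against 115 at 60 g/L.

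**Figure D1:**
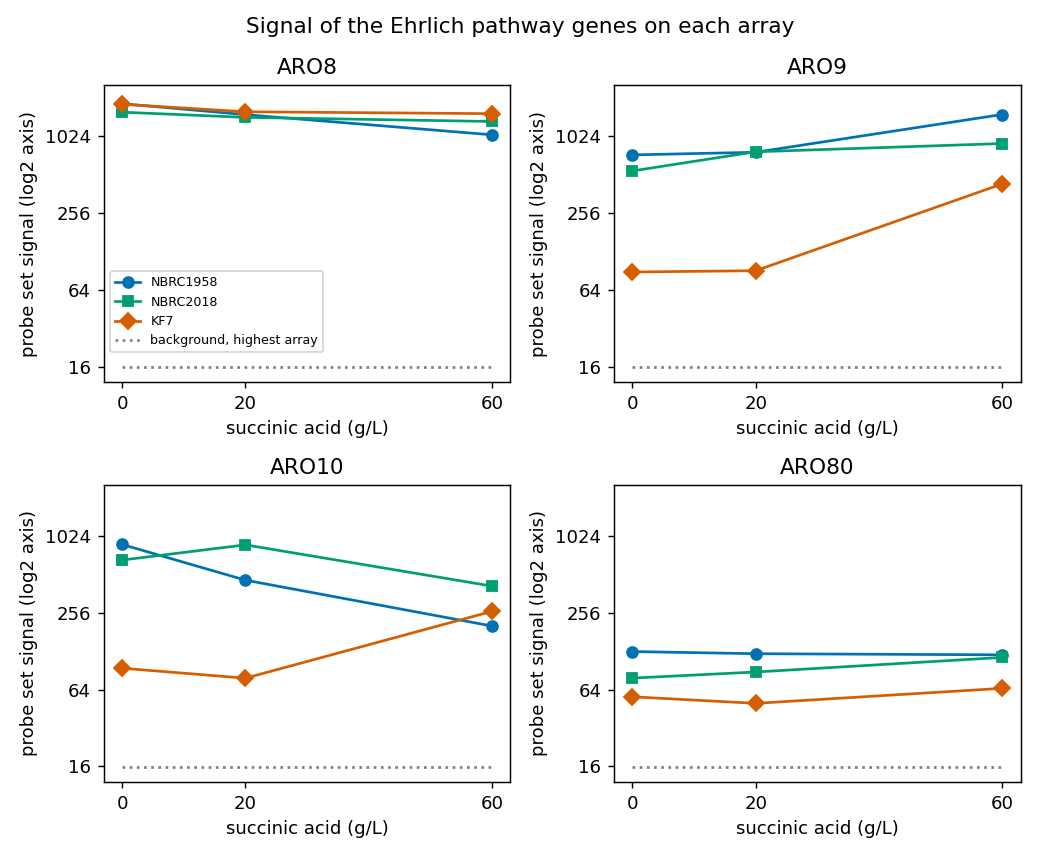
Signal of ARO8, ARO9, ARO10 and ARO80 in arbitrary units on a log axis against added succinic acid in g/L, with 1 point per array and 1 line per strain. ARO9 is highest at 60 g/L in all 3 strains, while the ARO10 lines of NBRC1958 and KF7 run in opposite directions.

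The dose comparisons were fitted across all 4359 tested genes with strain as a block, in limma with Benjamini-Hochberg adjustment and a threshold of 0.05. At 60 against 0 g/L, 22.8% of the tested genes passed, and 2 of the 3 tested Ehrlich genes, ARO8 and ARO9, were among them. At 60 against 20 g/L, 15.9% of genes passed and ARO9 was the 1 Ehrlich gene among them. At 20 against 0 g/L, 0.0229% of genes passed and none of the 3. Because the genes were chosen with these contrasts known, nothing is read from these counts, which also varied with the setting. At 60 against 0 g/L the count was 0 when the 0 g/L array of NBRC1958 or of KF7 was left out, 3 when the 60 g/L array of KF7 was left out, and 1, ARO9, when any other array was left out. ARO8 was also not among them after quantile normalization or median centring, and neither gene was with no strain block. At 60 against 20 g/L the ARO9 call was lost with no level filter, with an offset of 1, with no strain block, and on leaving out any 1 array other than the 60 g/L array of NBRC2018 or of KF7. ARO10 joined it when that KF7 array was left out. The 3 dose comparisons share arrays and are not independent of each other.

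Single strains had 1 array per dose, so a strain's own difference has no replicate check and is described by its size. In NBRC1958, ARO9 was at least 2-fold higher at 60 than at 0 g/L and ARO10 at least 2-fold lower, where 3.69% of tested genes were that much higher and 2.91% that much lower. In NBRC2018 none of the tested Ehrlich genes reached 2-fold, with backgrounds of 2.36% higher and 1.56% lower. In KF7 both ARO9 and ARO10 were at least 2-fold higher, with backgrounds of 2.23% higher and 0.986% lower. At 20 against 0 g/L none reached 2-fold in any strain, and the share of tested genes that did, in either direction, was 0.482% in NBRC1958, 0.184% in NBRC2018 and 0.78% in KF7.

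**Figure D2:**
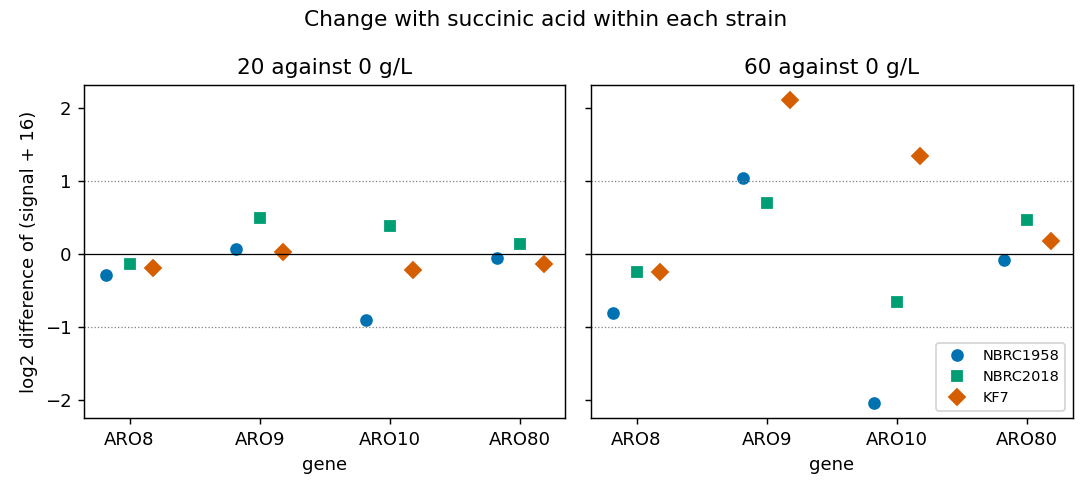
Log2 difference from 0 g/L within each strain at 20 and 60 g/L for the 4 genes, on the scale of signal plus 16, with 1 mark per strain. At 60 g/L the ARO9 marks lie at 0.70, 1.04 and 2.11, all above 0, and the ARO10 marks at -2.04, -0.66 and 1.34 lie on both sides of 0.

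ARO9 and ARO10, which ARO80 is known to activate together, differed in their change with dose, to an unequal extent in the 3 strains. At 60 against 0 g/L the ARO9 difference exceeded the ARO10 difference by 3.08 in NBRC1958, by 1.36 in NBRC2018 and by 0.77 in KF7, on the log2 scale. At 20 against 0 g/L the excess was 0.97, 0.10 and 0.25. In NBRC1958 ARO9 was higher and ARO10 lower at 60 g/L, whereas in KF7 both were higher at 60 g/L. In NBRC1958 the ARO80 signal stayed between 120 and 127 over these arrays.

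A straight line on dose was fitted to each strain to ask whether strains differed in their response. None of the 4359 genes passed the F test of the difference in slope in limma with Benjamini-Hochberg adjustment (smallest adjusted p = 0.344), and 421 had an unadjusted p under 0.05. That test has few residual degrees of freedom, and missing the threshold does not show that the strains respond alike. The fitted ARO10 slopes, as a log2 change over 60 g/L, came to -1.99 for NBRC1958, -0.79 for NBRC2018 and 1.48 for KF7.

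KF7 stood apart from the other strains in ARO9 at every dose. Its ARO9 signal was 8.30, 8.51 and 3.51 times lower than that of NBRC1958 at 0, 20 and 60 g/L, and 6.22, 8.58 and 2.08 times lower than that of NBRC2018. The mean log2 difference was -2.50 ± 0.63 from NBRC1958 and -2.12 ± 0.97 from NBRC2018 (SD, n = 3 doses). NBRC2018 and NBRC1958 lay closer, with a mean difference of -0.38 ± 0.38. A difference between strains is one of probe set signal, in which the RNA level and the match of the probes to the strain's own sequence cannot be told apart.

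ARO10 was also low in KF7 at the lower doses and not at the highest. Its signal was 9.36 and 5.89 times lower in KF7 than in NBRC1958 at 0 and 20 g/L, and 1.30 times higher at 60 g/L. Against NBRC2018 it was 7.06, 11.1 and 1.58 times lower at 0, 20 and 60 g/L. The mean log2 differences of KF7 were -1.67 ± 1.79 from NBRC1958, within the SD, and -2.16 ± 1.36 from NBRC2018 (SD, n = 3 doses). ARO80 differed by -0.93 ± 0.17 and -0.58 ± 0.16, and ARO8 by 0.20 ± 0.30 and 0.18 ± 0.03, in KF7 against NBRC1958 and NBRC2018.

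All 3 KF7 arrays lay below all 6 other arrays for ARO9, whose highest KF7 signal was 434 against a lowest other signal of 549.6. The same held for ARO80, with 65.5 against 78.8. Over all genes on the array 6.77% had this pattern. ARO8 and ARO10 overlapped between KF7 and the other strains. In the strain comparisons ARO9 was 1 of the 3 tested Ehrlich genes past the test for KF7 against NBRC1958, where 19.1% of all tested genes passed. For KF7 against NBRC2018, ARO9 and ARO10 passed among 16.4% of all tested genes, and for NBRC2018 against NBRC1958 none of the 3 passed among 27.9%. With no dose block, ARO9 remained past the test against NBRC1958, and neither ARO9 nor ARO10 passed against NBRC2018. With 1 array left out at a time ARO9 passed in both KF7 comparisons. ARO10 joined it against NBRC1958 when the 60 g/L array of NBRC1958 or of KF7 was left out. Against NBRC2018 the ARO10 call was lost when any NBRC2018 array, the 20 g/L array of NBRC1958, or the 0 or 20 g/L array of KF7 was left out. Nothing is read from these counts either.

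**Figure D3:**
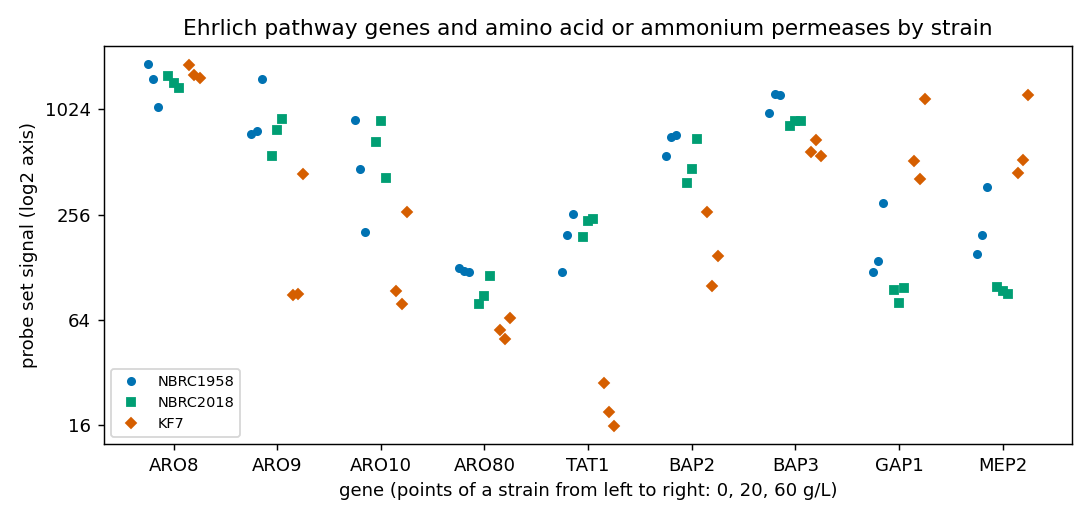
Signal of the 4 Ehrlich genes and of the permease genes TAT1, BAP2, BAP3, GAP1 and MEP2 by strain. Signals are in arbitrary units on a log axis, with 1 point per dose. The KF7 points of ARO9 and ARO80 lie below all points of the other strains, and those of ARO8 and ARO10 overlap them.

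Across the 9 arrays, which share strains and doses, ARO9 went with ARO80 (Pearson r = 0.88) and with ARO10 (r = 0.71) on the log2 scale, as a description. With each strain's mean removed, r was 0.57 for ARO9 with ARO80 and 0.19 for ARO9 with ARO10. ARO10 with ARO80 went from 0.66 to 0.15 by the same step. ARO8 ran against ARO9, with r of -0.63 over the arrays and -0.60 with strain means removed. The coefficients among ARO9, ARO10 and ARO80 were thus lower once the strains' means were taken out. For ARO8 with ARO10, r went up from 0.02 to 0.62 by that step, and for ARO8 with ARO80 it went from -0.40 to -0.14.

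Among all tested genes, those whose pattern over the 9 arrays was most like each Ehrlich gene were listed by Pearson r, as a description. For ARO9 they were AFR1 (0.98), MUP3 (0.96), a low-affinity methionine permease gene, YTA7 (0.95), BRR1 (0.95) and CTL1 (0.95). For ARO10 they were FET5 (0.97), a vacuolar multicopper oxidase gene, PIR3 (0.97), a cell wall protein gene, SNF12 (0.91), CSM2 (0.91) and ZRT1 (0.90), the high-affinity zinc transporter gene. For ARO80 they were GAL11 (0.98), a Mediator subunit gene, PDR1 (0.96), SED4 (0.95), AYT1 (0.95) and SLX5 (0.94). For ARO8 they were RCF1 (0.95), SLX1 (0.95), EAP1 (0.94), SKO1 (0.94) and AIM41 (0.94). No gene stood in the lists of 2 Ehrlich genes.

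The neighbouring steps of the pathway were read in 9 lists of 75 genes, of which 73 were on the array and 60 were tested. These lists, too, were chosen with earlier results of the same arrays known. Their counts and p-values are therefore given as a description. At 60 against 0 g/L, 7 of the 60 rose and 9 fell, with a median log2 difference of 0.02, while over all tested genes 378 rose and 617 fell with a median of -0.05. At 20 against 0 g/L none of the 60 passed in limma, 4 had an unadjusted p under 0.05, and over all tested genes 158 did. When the 0 g/L array of NBRC1958 was left out, the 16 calls at 60 against 0 g/L became 8. The 8 lost calls were those of BAT1, AAT1, PDC5, EEB1, ARO2, BNA4, CAR2 and GAP1, and AAT1, PDC5, BNA4, CAR2 and GAP1 were also lost on leaving out another single array (limma, adjusted p up to 0.20). The 8 calls that held with any 1 array left out were those of ADH3, GRE2, URE2, ARO3, ARO4, BNA1, BNA7 and CAR1.

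Of all tested genes 8.67% rose and 14.2% fell at 60 against 0 g/L, and the counts of the short lists that follow are a description beside those shares. Upstream, 3 of 11 tested genes of the aromatic amino acid synthesis list (27.3%) fell and none rose. That list also holds the regulator gene GCN4. ARO3 (YDR035W), which with ARO4 encodes the first enzyme of that synthesis, fell from a signal of 3153 ± 539 to 1758 ± 182 (SD, n = 3), a log2 difference of -0.83 (limma, adjusted p = 0.0032). ARO4 (YBR249C) and ARO2, the chorismate synthase gene, fell by 0.61 and 0.73 on the log2 scale (limma, adjusted p = 0.0061 and 0.010). These 3 genes were lower at 60 g/L in all 3 strains, while ARO9 was higher in all 3. At the steps that ARO8, ARO9 and ARO10 carry out for aromatic substrates, the branched-chain aminotransferase gene BAT1 fell by 0.80, the aspartate aminotransferase gene AAT1 rose by 0.85 and the pyruvate decarboxylase gene PDC5, a close relative of PDC1, fell by 1.53 (limma, adjusted p = 0.0089, 0.018 and 0.018). Thus 1 of 4 tested aminotransferase genes rose and 1 fell (25% each), and 1 of 3 tested decarboxylase genes fell (33.3%). BAT2, AAT2, PDC1 and THI3 did not pass.

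Downstream of ARO10, 1 of 11 tested dehydrogenase genes rose and 1 fell (9.09% each), shares near or below those of all tested genes. GRE2 (YOL151W), which encodes a reductase of methylglyoxal and of branched-chain aldehydes, rose from 165 ± 97.5 to 1190 ± 377 (SD, n = 3), a log2 difference of 2.83 (limma, adjusted p = 0.0038). ADH3, the mitochondrial alcohol dehydrogenase gene, fell by 0.54, and EEB1, an ethyl ester synthase gene and 1 of 7 tested in its list, rose by 1.41 (limma, adjusted p = 0.0057 and 0.010).

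Tryptophan can also leave through the kynurenine pathway to NAD, where 2 of 7 tested genes (28.6%) fell, BNA1 by 1.56 and BNA7 by 0.61, and 1 (14.3%) rose, BNA4 by 0.36 (limma, adjusted p = 0.0038, 0.0055 and 0.032). Of the GATA factor list 1 of 3 tested genes (33.3%) fell: URE2, the inhibitor of the GATA activators, fell by 0.57 (limma, adjusted p = 0.0056). Of the lists for nitrogen uptake and use, the arginine breakdown genes CAR1 and CAR2 rose by 1.54 and 0.85 and GAP1, the general amino acid permease gene, by 0.80 (limma, adjusted p = 0.0012, 0.014 and 0.048). They were 2 of 8 tested genes of the nitrogen source breakdown list (25%) and 1 of 6 tested amino acid permease genes (16.7%). The first list also holds the ammonium permease gene MEP2, and none of either list fell past the test.

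**Figure D4:**
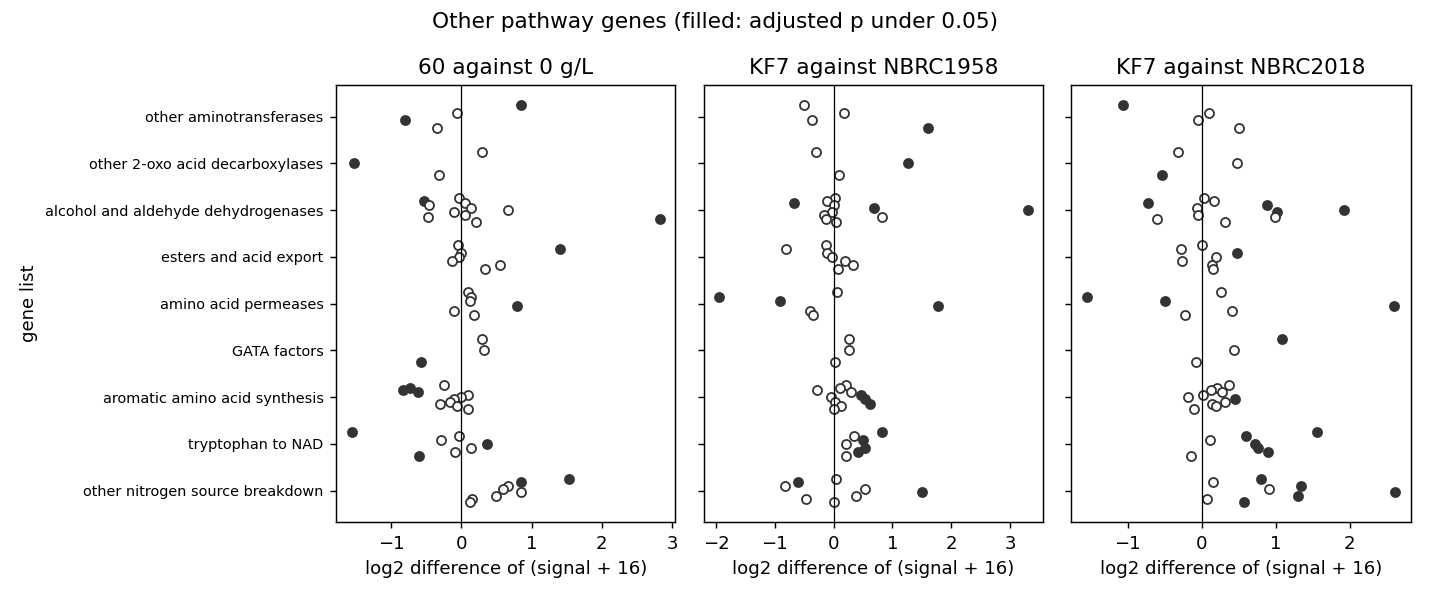
Log2 difference of the tested genes in 9 lists around the Ehrlich pathway, with 1 point per gene and filled points past the test. The panels show 60 against 0 g/L, KF7 against NBRC1958 and KF7 against NBRC2018. At 60 against 0 g/L, genes of aromatic amino acid synthesis past the test all lie below 0, and GRE2 at 2.83 and CAR1 at 1.54 lie above 0. In the KF7 panels, genes of that synthesis past the test lie above 0.

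Of 6 tested amino acid permease genes, 2 were lower in KF7 than in each of the other strains, BAP2 and BAP3, and 1 was higher, GAP1. Of all tested genes, 9.66% were lower and 9.45% higher in KF7 than in NBRC1958. Against NBRC2018 these shares were 9.29% and 7.13%. The other 3, TAT2, AGP1 and GNP1, did not pass in either comparison. TAT2, the tryptophan permease gene, differed by -0.36 from NBRC1958 and -0.22 from NBRC2018 (limma, adjusted p = 0.099 and 0.29), and AGP1 by 0.07 and 0.27 (limma, adjusted p = 0.77 and 0.23). BAP2, whose product carries branched-chain and aromatic amino acids, had signals of 549, 713 and 731 in NBRC1958, 385, 466 and 687 in NBRC2018, and 266, 101 and 148 in KF7, at 0, 20 and 60 g/L. All 3 KF7 signals lay below the others, as they did for ARO9, a pattern that 6.77% of all genes on the array had. BAP2 was lower in KF7 than in NBRC1958 by a log2 difference of -1.95 and BAP3 by -0.91 (limma, adjusted p = 0.0061 and 0.0021). Against NBRC2018 the differences were -1.55 and -0.49 (limma, adjusted p = 0.016 and 0.022), but neither call held throughout. The BAP2 call was lost on leaving out the 20 or 60 g/L array of either strain and the BAP3 call on leaving out the 0 or 60 g/L array of either (adjusted p up to 0.071 and 0.088).

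TAT1, a tyrosine and tryptophan permease gene that was below the level filter and is named after its values were seen, had signals of 120, 195 and 258 in NBRC1958 and 191, 236 and 243 in NBRC2018. In KF7 they were 28.0, 19.1 and 15.8, close to the background. GAP1 went the other way, higher in KF7 by 1.78 than in NBRC1958 and by 2.60 than in NBRC2018 (limma, adjusted p = 0.0033 and 0.0010). MEP2, an ammonium permease gene, had a mean signal of 735 ± 438 in KF7, 239 ± 114 in NBRC1958 and 94.5 ± 4.0 in NBRC2018 (SD, n = 3 doses), higher in KF7 than in either (limma, adjusted p = 0.0095 and 0.0013). The first of these was 0.052 when the 0 g/L array of NBRC1958 was left out. GAP1 and MEP2 are known targets of the GATA activators. MEP2 is 1 of 8 tested genes of the list for other nitrogen source breakdown. Against NBRC1958, 1 of the 8 was higher in KF7 (12.5%) and 1 lower (12.5%), CAR2 by 0.61 (limma, adjusted p = 0.048). The CAR2 call was lost on leaving out any 1 of 7 arrays. Of all tested genes 9.45% were higher and 9.66% lower. Against NBRC2018, 5 of the 8 were higher (62.5%) and none lower, beside 7.13% and 9.29%. Of these 5, PUT1, CAR1 and UGA1 lost their call on leaving out at least 1 array. MEP2 alone of the 5 was also higher past the test against NBRC1958. There PUT1, CAR1, UGA1 and DAL7 differed by 0.38, 0.04, 0.0021 and -0.83 (limma, adjusted p = 0.48, 0.86, 0.99 and 0.051). In NBRC2018 against NBRC1958, 5 of the 8 list genes were lower (62.5%) and none higher, beside 11.5% and 16.3%. CAR1, UGA1, DAL7 and MEP2 were among those lower, so the count against NBRC2018 is not one of KF7 alone. Whether the permease signals bear on those of ARO9 and ARO10 was not tested.

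Over the 60 tested genes of the lists, 13 were higher and 4 lower in KF7 than in NBRC1958, against 412 and 421 of all tested genes. In KF7 against NBRC2018, 17 were higher and 5 lower, against 311 and 405. The first count, 17 in all, became 10 or 7 on leaving out the 0 or 20 g/L array of NBRC1958, and 11 or 10 on leaving out those of KF7. The second, 22 in all, became 12 on leaving out any 1 of the NBRC2018 arrays and 13 on leaving out the 0 g/L array of KF7.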

How the data were processed

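The authors deposited 1 intensity value per probe set and array on a linear scale. Their scanning, summarization and normalization are not given in the sources used here. Of 10928 probe sets, 5498 were paired with 1 S. cerevisiae gene through GEO's platform annotation, giving 5449 genes, 12 symbols of which were updated. For a gene with several probe sets the highest mean was taken. The 4 Ehrlich genes and the gene lists were chosen with earlier results of these data known. List genes named are from those past the test (up to 6 a list and comparison), and the most alike genes are the top 5 by Pearson r. TRP1 and DUR1,2 were not analysed here. Arrays were compared as log2(value + 16). The fits used limma 3.58.1 (R 4.3.3), after leaving out the lowest 20% of genes by mean (1090). Dose and strain comparisons had strain and dose as additive factors, with 4 residual degrees of freedom. P-values were adjusted over the 4359 remaining genes. No pair of arrays held identical values. P-values of the dose and strain comparisons measure only the spread of these arrays around additive effects of strain and dose. Differences in response between strains and technical noise cannot be told apart in that spread. The F test of slopes fitted a line on dose to each strain, and its p-values measure the spread around those lines. The replicate number stands for the strain, so it pairs the arrays by the labels and is the block of the dose comparisons. Alternatives were quantile normalization, median centring, offsets of 1 and 64, other level filters, averaging of probe sets, an intensity trend, no replicate block and leaving out each array. The procedure was tested on simulated data.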

Additional observations from a re-analysis of the deposited data

Results flagged for a closer look

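ARO10 was at least 2-fold lower in 1 strain and at least 2-fold higher in another under the same contrast. Its log2 difference at 60 against 0 g/L was -2.04 in NBRC1958 and -0.66 in NBRC2018, and 1.34 in KF7. There is 1 array per strain and dose, so this difference between strains has no replicate check. ARO10 was among the genes of the limma F test of slopes, in which none passed (smallest adjusted p = 0.344). Missing that threshold does not show that the strains respond alike.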

How the results depend on the processing

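No difference past the test changed direction under the alternatives run, but means of the Ehrlich genes smaller than their SD could turn when 1 array was left out. The ARO10 mean at 60 against 0 g/L turned without either of 2 NBRC1958 arrays (0.11 and 0.18), and at 60 against 20 g/L it ranged from -1.10 to 0.42. At 20 against 0 g/L the means ranged from -0.10 to 0.48 for ARO9, from -0.70 to 0.32 for ARO10 and from -0.12 to 0.06 for ARO80, and in NBRC2018 against NBRC1958 from -0.15 to 0.13 for ARO8 and from -0.13 to 1.06 for ARO10. With no replicate block the count of Ehrlich genes past the test was 1 for KF7 against NBRC1958 and 0 in the other 5 comparisons. With the lowest 50% of genes left out, the count past the test over all genes was 458 for 60 against 20 g/L, 498 for KF7 against NBRC1958 and 337 for KF7 against NBRC2018, and the pathway count for the last was 14, with fewer genes tested. With no replicate block, which moves strain or dose differences into the error, the counts over all genes were 66 at 60 against 0 g/L, 0 at 20 against 0 g/L, 4 at 60 against 20 g/L, 228 for KF7 against NBRC1958, 252 for KF7 against NBRC2018 and 406 for NBRC2018 against NBRC1958. The pathway counts were then 2, 0 at 60 against 20 g/L, 9, 10 and 9. Leaving out 1 array at a time, the counts over all genes ranged from 217 to 976 at 60 against 0 g/L (995 with all arrays), 0 to 1 at 20 against 0 g/L (1), 128 to 714 at 60 against 20 g/L (695), 302 to 895 for KF7 against NBRC1958 (833), 241 to 919 for KF7 against NBRC2018 (716) and 395 to 1301 for NBRC2018 against NBRC1958 (1214). The pathway counts ranged from 8 to 19, 3 to 16, 7 to 18, 12 to 23 and 7 to 26 in the same order without 20 against 0 g/L. For the Ehrlich genes 403 values moved by less than the SD over strains or doses. A further 11 moved by more, among them ARO80 at an offset of 64 (-0.63 and -0.38 in KF7 against NBRC1958 and NBRC2018). That SD was 1.70 for ARO10 at 60 against 0 g/L, so its turns in sign count among the smaller moves. Level filters, the intensity trend, probe set averaging, no replicate block and leaving out an array outside the comparison cannot change these differences. The 403 is therefore no measure of stability. The number of arrays limits all of these counts.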

Other observations

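In KF7 against NBRC2018, 5 of the 7 tested genes of the tryptophan to NAD list (71.4%) were higher and none lower, where 7.13% of all tested genes were higher and 9.29% lower. The 5 differed, BNA1 by 1.56, BNA6 by 0.89, BNA5 by 0.77, BNA4 by 0.73 and BNA2 by 0.61 on the log2 scale (limma, adjusted p = 0.0036, 0.0021, 0.0025, 0.0036 and 0.047). In KF7 against NBRC1958 4 (57.1%) were higher and none lower, against 9.45% and 9.66% of all tested genes, but all 4 calls were lost when the 20 g/L array of NBRC1958 was left out (limma, adjusted p = 0.056 to 0.11). BNA1, BNA4, BNA5 and BNA6 kept their call against NBRC2018 with any 1 array left out, and BNA2 lost it on leaving out the 20 g/L array of NBRC1958, any NBRC2018 array, or the 20 or 60 g/L array of KF7 (adjusted p up to 0.15). BNA2 and BNA4 did not pass in KF7 against NBRC1958, with differences of 0.34 and 0.20 (limma, adjusted p = 0.18 and 0.16). In NBRC2018 against NBRC1958, 3 of the 7 (42.9%) were lower and 2 (28.6%) higher, beside 11.5% and 16.3% of all tested genes.

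NBRC2018 against NBRC1958 gave 8 higher and 17 lower among the 60 tested list genes, against 711 and 503 of all tested genes. DAL7, a malate synthase gene of allantoin use with a close relative in MLS1, had the largest difference among them, -2.17 (limma, adjusted p = 0.0022). GNP1, a glutamine permease gene, was lower by a log2 difference of -0.81 (limma, adjusted p = 0.0074). ALD3, an aldehyde dehydrogenase gene with a near-identical neighbour in ALD2 whose signals may be mixed with its own, was higher by 1.38 in NBRC2018 and by 3.30 in KF7 than in NBRC1958 (limma, adjusted p = 0.0076 and 0.0003). The count of 25 was 8 and 7 on leaving out the NBRC1958 array at 0 or 20 g/L, and 11 and 15 on leaving out that of NBRC2018.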
